A study of Mus musculus with 8 samples.

Results

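The 10 genes described here encode myostatin, GDF11 and the activins, follistatin and follistatin-like proteins, and the receptors that the ligands share. They are *Mstn*, *Gdf11*, *Inhba*, *Inhbb*, *Fst*, *Fstl1*, *Fstl3*, *Acvr2a*, *Acvr2b* and *Acvr1b*. They were chosen by gene symbol, and are 10 of the 55401 genes in the deposited table. RNA-seq had been performed on 4 WT and 4 *mdx5cv* whole tibialis anterior (TA) muscles of male mice aged 6 mo. WT mice were of the C57/Bl6 strain, and *mdx5cv* mice are a model of Duchenne muscular dystrophy, with a mutation in the dystrophin gene *Dmd*, on the same strain background. The mutation is carried by every cell of the animal, and the labels give no treatment for either group. The comparison asks how the RNA of this pathway differs between dystrophic and healthy muscle.

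Myostatin, made mainly by muscle fibers, is a secreted brake on muscle growth. Myostatin, GDF11 and the activins are dimers of the TGF-β family that bind the type II receptors ACVR2A and ACVR2B, which then engage a type I receptor such as ACVR1B. The type I receptor phosphorylates SMAD2 and SMAD3, which enter the nucleus with SMAD4, while follistatin (*Fst*) and FSTL3 hold the ligands away from their receptors. Loss of myostatin or excess of follistatin gives large muscles.

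Values are normalized counts, that is, the reads of a gene after division by the size factor of the muscle. Each muscle gave between 13175524 and 14921057 reads over all genes, and the size factors were 0.873 to 0.944 in WT and 1.06 to 1.25 in *mdx5cv*, so at these levels 1 normalized count is close to 1 read. All 10 genes averaged at least 10 normalized counts over the 8 muscles and were tested, among 13677 genes that did. *Dmd* itself (chrX:82948870-85206141) had 6954 ± 857 normalized counts (SD, n = 4) in WT and 3964 ± 388 in *mdx5cv*, a log2 fold change of -0.81 ± 0.12 (SE; limma, adjusted p = 0.000177). The labels number the replicates but do not say how the muscles were sampled beyond that, so p-values measure the spread between these 8 samples.

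In *mdx5cv* TA, *Mstn* was 6.62-fold lower than in WT, while *Inhba*, *Fst* and *Fstl1* were 2.21-, 2.05- and 2.45-fold higher by their means. *Acvr2a* was lower by a smaller step, 1.35-fold. *Gdf11*, *Inhbb*, *Fstl3*, *Acvr2b* and *Acvr1b* did not pass the test. Thus 5 of the 10 genes passed an adjusted p of 0.05 in limma, beside 40.9% of all genes tested. Of these, 3 were higher, beside 20.9% of all genes, and 2 were lower, beside 20.1%. A log2 fold change of 1 or more in size was also reached by 3 of them (*Mstn*, *Inhba* and *Fstl1*), beside 13.6% of all genes. The values of the 4 WT and the 4 *mdx5cv* muscles did not overlap for 6 of the 10, beside 40.1% of all genes. Among the 6 was *Fstl3*, which averaged 8.26 in WT and reached the mean of 10 needed for testing only through *mdx5cv*. The median absolute log2 fold change was 0.74 over the 10 genes and 0.36 over all genes tested.

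**Figure D1:**
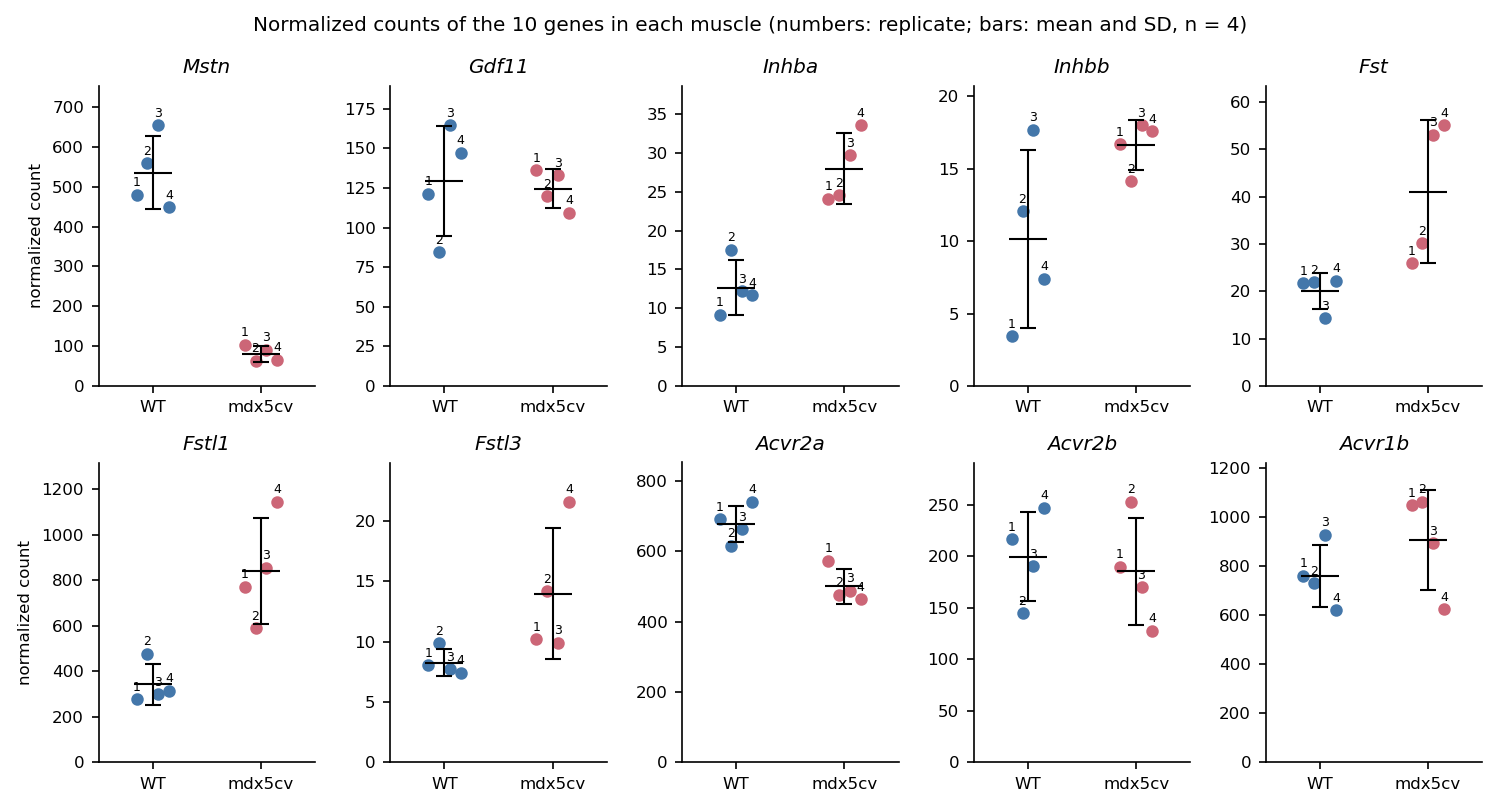
Normalized counts (vertical axes, each from 0) of the 10 genes in each of the 4 WT (blue) and 4 mdx5cv (red) muscles, numbered by replicate, with the mean and SD as black bars. Mstn was at 448 to 655 in WT and 63.2 to 104 in mdx5cv, whereas the groups overlapped for Gdf11, Inhbb, Acvr2b and Acvr1b.

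Among the ligands, *Mstn* (chr1:53061640-53068079, plus strand, GRCm38) changed most. WT replicates 1 to 4 had 480, 559, 655 and 448 normalized counts, and *mdx5cv* replicates 1 to 4 had 104, 63.2, 90.9 and 65.5. The lowest WT muscle was therefore above the highest *mdx5cv* muscle by a wide margin. The means were 536 ± 92.1 in WT and 80.9 ± 19.8 in *mdx5cv* (SD, n = 4 each). This gave a log2 fold change of -2.73 ± 0.17 (SE; 95% CI -3.11 to -2.35; adjusted p = 4.78e-07). The counts behind it were 419 to 592 reads per WT muscle and 67 to 112 per *mdx5cv* muscle. In whole muscle, fewer cells of a type and less RNA per cell cannot be told apart, and this holds for every gene described here.

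The DNA just before the start of *Mstn* is shown because the transcript differed most among the 10 genes, with that of *Inhba*, the ligand gene that rose, for comparison. Each is the 250 bases before the transcription start in RefSeq (GRCm38.p6), 5′ to 3′ on the strand of the gene (plus for both), and the capitals mark every CANNTG. This is the general form of the E-box, of which MyoD and related myogenic factors bind some, and it reads the same on both strands. The *Mstn* sequence is chr1:53061390-53061639 and the *Inhba* sequence is chr13:16011601-16011850.
Mstn: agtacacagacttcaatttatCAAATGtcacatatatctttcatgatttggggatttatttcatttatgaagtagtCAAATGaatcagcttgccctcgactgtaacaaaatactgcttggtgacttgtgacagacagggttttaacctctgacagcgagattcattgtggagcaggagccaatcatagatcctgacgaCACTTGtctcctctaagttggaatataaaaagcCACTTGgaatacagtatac
Inhba: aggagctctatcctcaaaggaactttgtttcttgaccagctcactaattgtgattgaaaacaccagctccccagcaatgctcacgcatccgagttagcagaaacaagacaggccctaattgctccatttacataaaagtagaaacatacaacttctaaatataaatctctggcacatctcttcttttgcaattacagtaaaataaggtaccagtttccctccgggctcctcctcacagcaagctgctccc
The *Mstn* stretch held 4 copies of CANNTG, which began 229, 174, 52 and 19 bases before the start, and the *Inhba* stretch held 0. Over the 250 bases before the start of 32851 mouse promoters, 66.2% held at least 1 copy and 3.84% held 4 or more. *Mstn* also had 2 copies of CAGAC, a core of the Smad-binding element, counted on either strand, and 42.2% of all promoters had at least 1. The letters TATAAA were present on the strand of the gene in both stretches, and in 7.59% of all promoters. A promoter was found in the table for 9 of the 10 genes, and the 7 that are not printed had between 0 and 3 copies of CANNTG. These matches describe letters in a window, and binding was not measured.

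*Gdf11* (chr10:128882295-128891718, minus strand), the closest relative of *Mstn*, had 121, 84.5, 165 and 147 normalized counts in WT and 136, 120, 133 and 109 in *mdx5cv*. All *mdx5cv* values fell inside the WT range. The log2 fold change was -0.02 ± 0.19 (95% CI -0.42 to 0.39; adjusted p = 0.953), an interval that leaves room for a change of either sign within these bounds. The log2 ratio of *Mstn* to *Gdf11* within each muscle was 1.97, 2.71, 1.98 and 1.599 in WT and -0.39, -0.91, -0.55 and -0.73 in *mdx5cv*. *Mstn* thus had the more reads of the pair in every WT muscle and the fewer in every *mdx5cv* muscle, a ratio that no scaling of the samples can alter apart from the added 1. Its sign in *mdx5cv* does depend on exon length. Per kb of exon, *Mstn* was above *Gdf11* in *mdx5cv* replicates 1 (38.4 against 33.5) and 3 (33.6 against 32.8), and below it in replicates 2 and 4.

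*Inhba* (chr13:16011851-16031621, plus strand) encodes the activin βA subunit, 2 of which form activin A. It had 9.17, 17.6, 12.2 and 11.7 normalized counts in WT and 24.1, 24.5, 29.7 and 33.6 in *mdx5cv*. Every *mdx5cv* muscle was above every WT muscle. This was a log2 fold change of 1.11 ± 0.27 (95% CI 0.54 to 1.68; adjusted p = 0.00494). The transcript was scarce, with 8 to 16 reads per WT muscle and 26 to 42 per *mdx5cv* muscle. *Inhbb* (chr1:119415465-119422248, minus strand), which encodes the βB subunit of activin B, had 3.44, 12.1, 17.7 and 7.42 in WT and 16.7, 14.2, 18.01 and 17.6 in *mdx5cv*. WT replicate 3 lay among the *mdx5cv* values and the other WT muscles below them. The log2 fold change of *Inhbb* was 0.84 ± 0.41 (95% CI -0.04 to 1.73; adjusted p = 0.116). Without WT replicate 3 it was 1.16 (adjusted p = 0.0411), and without WT replicate 1 it was 0.46 (adjusted p = 0.307). The within-muscle log2 ratio of *Inhba* to *Inhbb* was 0.45 ± 0.71 in WT and 0.71 ± 0.16 in *mdx5cv*, and the groups overlapped.

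Among the genes of follistatin and the follistatin-like proteins, *Fst* and *Fstl1* were higher in *mdx5cv*, and *Fstl3* did not pass the test. *Fst* (chr13:114452290-114458951, minus strand) had 21.8, 21.9, 14.4 and 22.2 normalized counts in WT and 25.9, 30.2, 53.1 and 55.1 in *mdx5cv*. Replicates 3 and 4 of *mdx5cv* stood well above replicates 1 and 2, which were close to the WT values without overlapping them. The log2 fold change was 0.94 ± 0.28 (95% CI 0.34 to 1.55; adjusted p = 0.0164), from 13 to 21 reads per WT muscle and 28 to 69 per *mdx5cv* muscle. The call was lost when any of 3 muscles was left out: the log2 fold change was 0.80 without WT replicate 3 (adjusted p = 0.0520), 0.80 without *mdx5cv* replicate 3 (adjusted p = 0.0559) and 0.78 without *mdx5cv* replicate 4 (adjusted p = 0.0540).

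*Fstl1* (chr16:37776873-37836514, plus strand) encodes a secreted glycoprotein of connective tissue with a follistatin-like domain. It had 278, 477, 299.6 and 316 normalized counts in WT and 772, 591, 855 and 1145 in *mdx5cv*. WT replicate 2 was the highest of its group and *mdx5cv* replicate 2 the lowest of its own, and the groups remained apart. The means were 343 ± 90.9 and 841 ± 231, and the log2 fold change was 1.29 ± 0.20 (95% CI 0.86 to 1.71; adjusted p = 0.000249). *Fstl3* (chr10:79777272-79782630, plus strand), which binds activin and myostatin as follistatin does, had 8.02, 9.87, 7.74 and 7.42 in WT and 10.2, 14.2, 9.91 and 21.6 in *mdx5cv*. The groups were separated only by the step from 9.87 to 9.91, and *mdx5cv* replicate 4 was the highest. The log2 fold change of *Fstl3* was 0.63 ± 0.34 (95% CI -0.10 to 1.36; adjusted p = 0.153).

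Set against its inhibitor, *Mstn* was lower still. The log2 ratio of *Mstn* to *Fst* within each muscle was 4.40, 4.61, 5.41 and 4.27 in WT and 1.96, 1.04, 0.76 and 0.24 in *mdx5cv*. The means were 4.67 ± 0.51 and 1.003 ± 0.72 (SD, n = 4), a difference of -3.67 on the log2 scale, given as a description. *Mstn* had more reads than *Fst* in all 8 muscles, and in *mdx5cv* replicate 4 the margin was the narrowest.

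**Figure D2:**
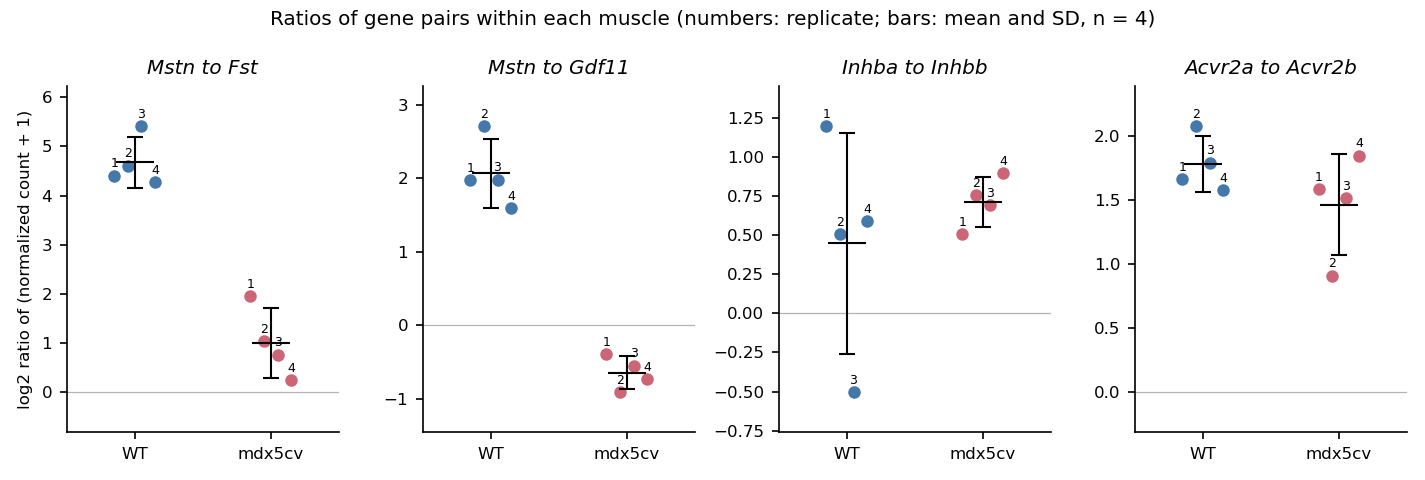
Log2 ratios of (normalized count + 1) for 4 gene pairs within each muscle (vertical axes), for WT (blue) and mdx5cv (red) muscles numbered by replicate, with the mean and SD (n = 4). Mstn to Fst and Mstn to Gdf11 did not overlap between groups, whereas Inhba to Inhbb and Acvr2a to Acvr2b did.

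Among the receptors, *Acvr2a* (chr2:48814109-48903269, plus strand), a type II receptor for activins and myostatin, had 690, 615, 662 and 740 normalized counts in WT and 573, 476, 488 and 463 in *mdx5cv*. The groups did not overlap. The means were 677 ± 52.3 and 499.9 ± 49.5, and the log2 fold change was -0.44 ± 0.11 (95% CI -0.67 to -0.21; adjusted p = 0.00500). This call depended on the scaling: with each muscle scaled to the same total, the log2 fold change was -0.08 (adjusted p = 0.636). Exons of *Acvr2a* also overlap those of *Orc4* on the opposite strand, and whether the counting used the strand is not given in the sources used here. *Orc4* had 269 ± 23.6 in WT and 214 ± 31.1 in *mdx5cv* (log2 fold change -0.33, adjusted p = 0.0512).

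The other type II receptor, *Acvr2b* (chr9:119402118-119434995, plus strand), which binds myostatin with high affinity, had 217, 145, 190.2 and 247 in WT and 189.9, 253, 170.2 and 128 in *mdx5cv*. The values of the groups were interleaved, with the highest and the lowest muscle both *mdx5cv*. The log2 fold change was -0.12 ± 0.20 (95% CI -0.56 to 0.32; adjusted p = 0.659). The log2 ratio of *Acvr2a* to *Acvr2b* was 1.78 ± 0.22 in WT and 1.47 ± 0.40 in *mdx5cv*, and the groups overlapped. *Acvr1b* (chr15:101174067-101213684, plus strand), which encodes the type I receptor ALK4, had 762, 732, 929.8 and 622 in WT and 1051, 1064, 894 and 626 in *mdx5cv*. *mdx5cv* replicate 4 lay with the lowest WT muscle, and the log2 fold change was 0.24 ± 0.17 (95% CI -0.12 to 0.60; adjusted p = 0.277). Without that muscle it was 0.41 (adjusted p = 0.0308), and it was 0.15 without WT replicate 4 (adjusted p = 0.534), 0.16 without *mdx5cv* replicate 1 (adjusted p = 0.530) and 0.15 without *mdx5cv* replicate 2 (adjusted p = 0.526).

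Per length of exon, the order of the 10 genes differed between the groups. In WT, *Mstn* was at the top with 198 ± 34.0 normalized counts per kb of exon, and *Acvr1b* followed with 172 ± 28.9. The values of these 2 genes overlapped, so their order is not resolved. *Acvr2a* came next at 119 ± 9.20 and *Fstl1* after it at 69.7 ± 18.5, and each of the steps from *Acvr1b* to *Acvr2a* and from *Acvr2a* to *Fstl1* was clear of overlap. *Acvr2b* (50.8) and *Gdf11* (31.9) filled the middle, and *Fst* (4.38), *Fstl3* (3.38), *Inhbb* (2.39) and *Inhba* (1.98) formed a low group that lay below *Gdf11* without overlap. Within it, each gene overlapped the next, while *Fst* and *Fstl3* lay above *Inhba* without overlap.

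In *mdx5cv*, *Acvr1b* (206 ± 46.1 normalized counts per kb) and *Fstl1* (171 ± 47.0) led with overlapping values. *Acvr2a* followed at 87.9 ± 8.71 and *Acvr2b* at 47.1, each below the gene before it without overlap. *Mstn*, at 29.9 ± 7.31, was in place 6 and overlapped *Gdf11* at 30.7. It still lay above *Fst* (8.96), the highest of the low group, and *Fst*, *Fstl3* (5.71), *Inhba* (4.38) and *Inhbb* (3.90) overlapped from each to the next.

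**Figure D3:**
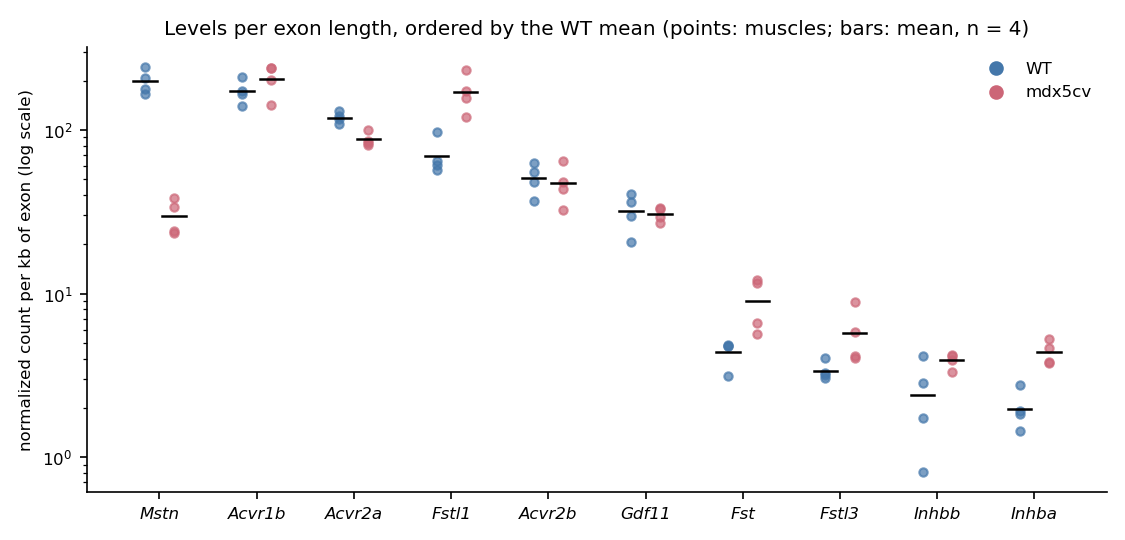
Normalized counts per kb of exon (vertical axis, log scale) of the 10 genes, ordered by the WT mean, with points for the 4 WT (blue) and 4 mdx5cv (red) muscles and black bars for the means. Mstn dropped from place 1 in WT to place 6 in mdx5cv, and Fstl1 moved from place 4 to place 2.

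The genes whose pattern over the 8 muscles was most like that of *Mstn* were *Mettl21c*, *Fbp2*, *2310065F04Rik*, *Efcab6* and *Hs3st5*. Likeness was the mean absolute difference between the log2 deviations of 2 genes from their WT means, among 7641 genes with a mean of at least 100. The difference was 0.33 for *Mettl21c*, a lysine methyltransferase gene of muscle, and 0.35 for *Fbp2*, the muscle form of fructose bisphosphatase. Their own log2 fold changes were -2.55 and -2.47. Fold changes close to that of *Mstn* follow from the measure, which includes the difference between the groups. For *Fstl1* the closest were *Prelid1*, *Mrc2*, *Mfap5*, *Scpep1* and *S100a6*. *Prelid1*, the closest, differed from *Fstl1* by a mean of 0.10. *Mrc2*, a collagen receptor of fibroblasts, differed by 0.11, and *Mfap5*, a microfibril protein gene, by 0.12. The log2 fold changes of *Prelid1*, *Mrc2* and *Mfap5* were 1.25, 1.42 and 1.40, near that of *Fstl1* for the same reason.

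Around these 10 genes, 41 others of the pathway were listed by role, and 30 of them had enough reads to be tested. Of the 30, 13 were higher in *mdx5cv*, beside 20.9% of all genes tested, 5 were lower, beside 20.1%, and 12 did not pass the test. A log2 fold change of 1 in size was passed as well by 6, beside 13.6% of all genes. The median log2 fold change was 0.25 over the 30 genes and 0.00 over all genes tested. Those past a log2 fold change of 1 are described below with the first gene of any role that had none, and others are named where a count is small.

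Steps that release or hold the ligands changed in both directions. *Wfikkn2*, which encodes a secreted inhibitor that binds myostatin and GDF11, fell from 159 ± 19.6 normalized counts in WT to 80.7 ± 22.0 in *mdx5cv* (log2 fold change -1.01 ± 0.19, adjusted p = 0.00124), so that it moved the opposite way to *Fst*. Of the 4 binding protein and decoy genes tested, *Wfikkn2* alone was called lower, beside 20.1% of all genes tested. *Ltbp3*, a latent TGF-β binding protein gene, was called higher (0.54, adjusted p = 0.00148), beside 20.9%. *Bambi* and *Dcn* had log2 fold changes of -0.67 and -0.24 and did not pass the test (adjusted p = 0.106 and 0.425). Of 5 processing enzyme genes tested, *Bmp1* and *Furin* rose, beside 20.9% of all genes tested, and 3 did not pass the test. *Bmp1*, whose protease activates latent myostatin, had 179.9 to 209.7 normalized counts in WT and 321 to 455 in *mdx5cv* (1.03 ± 0.13, adjusted p = 6.57e-05). *Furin*, a proprotein convertase gene, rose by 0.56 on the log2 scale (adjusted p = 0.0125). *Inha*, whose α subunit turns activin subunits into inhibins, had 44.3 ± 14.4 in WT and 38.3 ± 7.84 in *mdx5cv* (adjusted p = 0.613), and the other 5 ligand genes of the list had too few reads to be tested.

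Of 4 other receptor genes tested, 1 rose, beside 20.9% of all genes tested, and 1 fell, beside 20.1%. *Acvr1*, a type I receptor gene of BMP signaling that activin A can also engage, rose from 175 ± 17.5 to 285 ± 46.4 normalized counts (log2 fold change 0.69 ± 0.14, adjusted p = 0.00136). *Tgfbr3*, the betaglycan co-receptor gene, fell by 0.39 (adjusted p = 0.0123). *Bmpr2* (-0.27, adjusted p = 0.0536) and *Tgfbr1* (0.12, adjusted p = 0.458) did not pass the test, though the groups did not overlap for *Bmpr2*. All 11 genes of Smads and their regulators were tested, of which 5 rose, beside 20.9% of all genes tested, and 3 fell, beside 20.1%. The 5 that rose were *Tgif1*, *Pmepa1*, *Skil*, *Smad7* and *Ski*. Their proteins are known to limit Smad signaling, as are the ubiquitin ligases of *Smurf2*, which fell, and *Smurf1*, which did not pass the test (log2 fold change 0.36, adjusted p = 0.0543). *Tgif1* went from 40.9 ± 13.6 to 100.2 ± 10.3 (1.32 ± 0.21, adjusted p = 0.000318), and the log2 fold changes of the other 4 ran from 0.40 for *Ski* (adjusted p = 0.0258) to 0.98 for *Pmepa1* (adjusted p = 0.00785). *Smad4*, *Zfyve9* and *Smurf2* fell by 0.45, 0.37 and 0.27 (adjusted p = 0.00252, 0.0239 and 0.0326). *Smad2* and *Smad3*, which carry the signal itself, had log2 fold changes of -0.15 and -0.17 and did not pass the test. Of the 5 genes that fell in the whole list, 1 (*Wfikkn2*) still did when each muscle was scaled to the same total, and all 13 that rose still did, under a scaling that moved every gene up. Under median centring, which moved them down, 12 were higher, and *Ski* was then at 0.30 (adjusted p = 0.0740). *Ski* also lost its call without any of WT replicates 1 and 2 and *mdx5cv* replicates 3 and 4 (adjusted p = 0.0545 to 0.0880), as did *Zfyve9* without WT replicate 1 or *mdx5cv* replicate 4 (adjusted p = 0.0838 and 0.0581). *Smurf2* lost its call without any of 5 muscles, WT replicates 1 and 3 and *mdx5cv* replicates 1 to 3 (adjusted p = 0.0545 to 0.0831). The same held with no filter on low values (adjusted p = 0.0732) and with the replicate number as a block (adjusted p = 0.0539). With no variance trend in limma, *Ski* and *Zfyve9* lost their calls (adjusted p = 0.0594 and 0.0586).

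Of *Cdkn1a*, *Tgfbi*, *Cdkn1c* and *Ccn2*, listed as responding to SMAD2 and SMAD3, 3 were higher, beside 20.9% of all genes tested, and *Ccn2* did not pass the test. *Cdkn1a*, the cell cycle inhibitor gene p21, had 18.3, 17.6, 22.1 and 35.0 normalized counts in WT and 283, 189.6, 203 and 496 in *mdx5cv*. No *mdx5cv* muscle came near the WT values, and the log2 fold change was 3.54 ± 0.29 (adjusted p = 2.44e-06). *Tgfbi*, a matrix protein gene, rose from 190.3 ± 24.9 to 532 ± 177 (1.44 ± 0.18, adjusted p = 5.58e-05). *Cdkn1c*, which encodes another cell cycle inhibitor, rose from 92.7 ± 29.1 to 191 ± 52.6 (1.03 ± 0.23, adjusted p = 0.00310), with *mdx5cv* replicate 2 below WT replicate 2. *Ccn2*, a matricellular protein gene, had a log2 fold change of 0.39 (adjusted p = 0.120). The activity of the SMAD proteins was not measured.

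**Figure D4:**
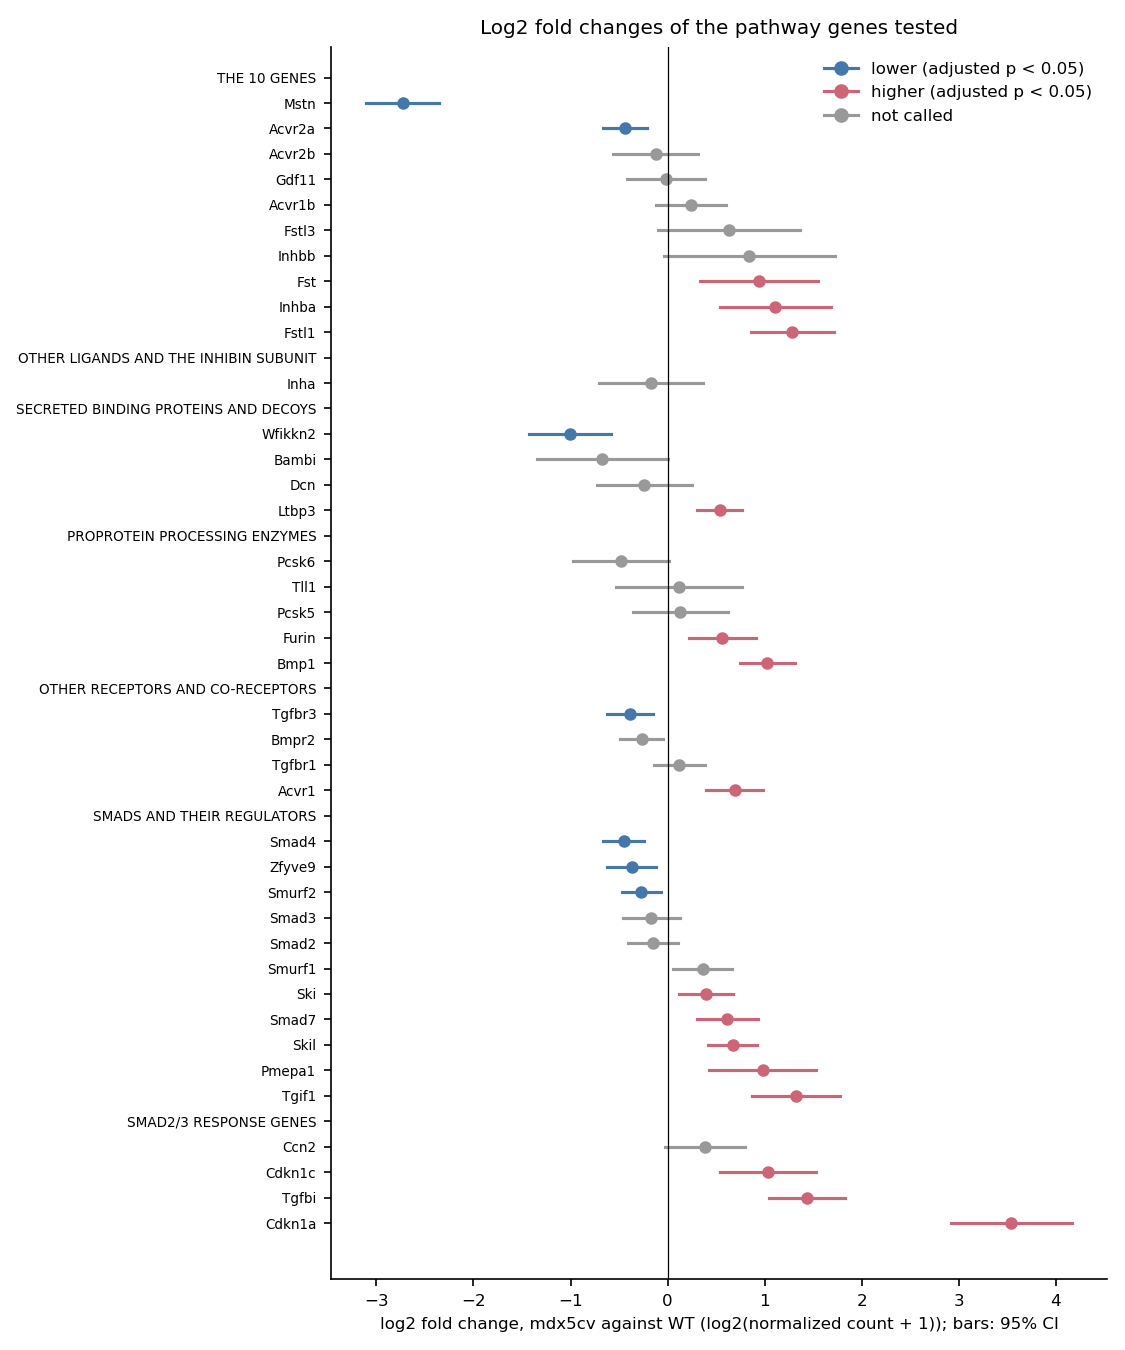
Log2 fold changes, mdx5cv against WT (horizontal axis, on log2(normalized count + 1)), of the 10 genes and the other pathway genes tested (1 not drawn), grouped by role, as points with 95% CI bars, colored by the call in limma. Mstn, at -2.73, lies furthest to the left and Cdkn1a, at 3.54, furthest to the right.

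Markers of other cell types differed with the genotype, and their counts stand beside 20.9% higher and 20.1% lower of all genes tested. All 6 macrophage markers were higher in *mdx5cv*, with a summed level of 481 to 746 normalized counts in WT and 3565 to 8548 in *mdx5cv*. Among them, *Itgam* averaged 3.88 in WT and reached the mean needed for testing only through *mdx5cv*. Of 6 markers of fibroblasts and fibro-adipogenic progenitors 5 were higher, with sums of 2776 to 3829 and 15150 to 29344. Most of the sum in *mdx5cv* was *Col1a1* and *Col3a1*, with log2 fold changes of 3.13 and 3.09. Those of the others were 1.19 for *Lum*, 0.63 for *Pdgfra*, 0.46 for *Dpt* and -0.30 for *Ly6a*, which did not pass the test. All 6 markers of regenerating fibers were higher, with sums of 198 to 229 and 2514 to 9398, and *Mymk* and *Chrng* among them had no more than 1 read in any WT muscle. *Mymk* and *Chrng* likewise reached that mean only through *mdx5cv*. At their WT levels, *Itgam*, *Mymk* and *Chrng* could be tested only if higher in *mdx5cv*, so their direction carries little information. These lists moved in the direction of *Inhba*, *Fst*, *Fstl1* and the response genes, and *mdx5cv* replicate 4, with the highest sum in each, also had the highest *Inhba*, *Fst*, *Fstl1* and *Fstl3*. Their part in the result was not tested.

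The lists that were lower moved in the direction of *Mstn*. Of 6 markers of fast glycolytic fibers, the fibers in which *Mstn* is known to be high, 3 were lower and none was higher, with log2 fold changes from -0.74 to -0.04. The summed level was 665129 to 866538 in WT and 477845 to 753584 in *mdx5cv*, and the groups overlapped. Most of that sum was *Myh4*, the gene of the fastest myosin (447053 ± 86136 in WT and 425780 ± 85226 in *mdx5cv*, adjusted p = 0.879). *Actn3*, *Pygm* and *Tnnt3* were each lower without overlap of the groups (log2 fold changes -0.64, -0.74 and -0.63, adjusted p = 0.0155, 0.00707 and 0.0277). All 5 endothelial markers were also lower (sums of 2891 to 3438 and 1705 to 2161), as were 3 of 4 Schwann cell markers (266 to 542 and 122 to 220), 2 of 4 adipocyte and 2 of 4 erythrocyte markers. The adipocyte marker *Lep*, called lower, averaged 3.67 in *mdx5cv* and reached the mean needed for testing only through WT. Slow fiber markers were mixed, with 3 of 6 higher and 1 lower, satellite cell markers had 1 of 3 tested higher, and 0 of 5 tendon markers passed limma's test at an adjusted p of 0.05. No marker was at 0 in every muscle, and the part of these cell types in the result was not tested.

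The scaling of the samples bore on the smaller differences. With each muscle scaled to the same total, the median of the log2 fold changes over the whole table was 0.36 in place of 0.00, and all 10 genes moved up by about that amount. *Mstn* was then at -2.37 and remained lower (adjusted p = 8.9e-07), and *Inhba* (1.45), *Fst* (1.29) and *Fstl1* (1.64) remained higher. Relative to the median of all genes, the log2 fold changes under that scaling were -2.73 for *Mstn*, 1.09 for *Inhba*, 0.93 for *Fst*, 1.29 for *Fstl1* and -0.44 for *Acvr2a*. They must lie close to those with the size factors, because the scalings differ only by a factor per muscle. They are therefore no separate check of the calls. The signs of *Gdf11* and *Acvr2b*, neither of which passed the test, turned under it.

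**Figure D5:**
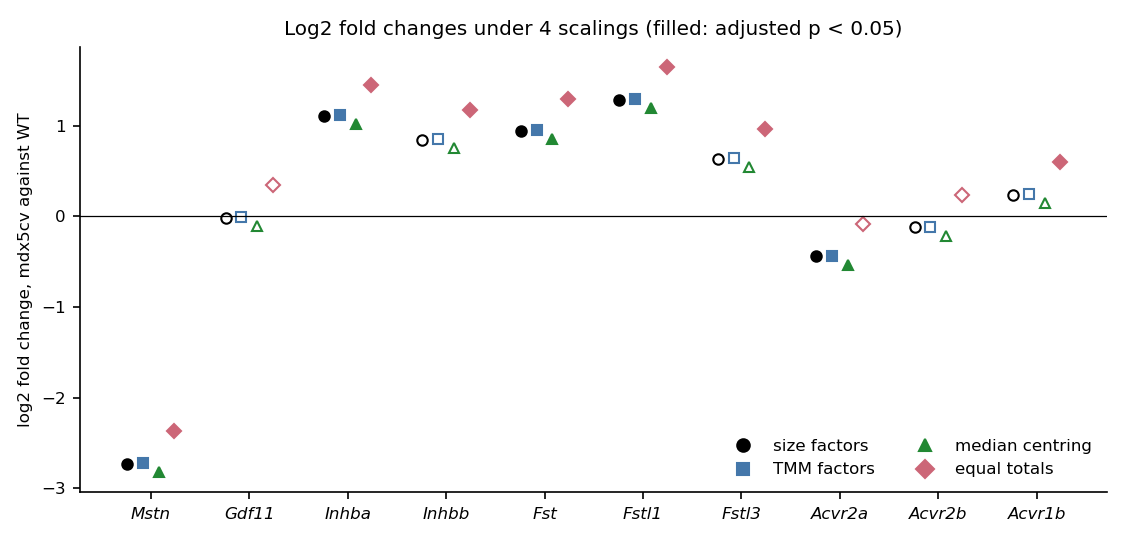
Log2 fold changes, mdx5cv against WT (vertical axis), of the 10 genes under the deposited size factors, TMM factors, median centring and equal totals, with filled symbols for an adjusted p under 0.05 in limma. Mstn lay between -2.82 and -2.37 under the 4 scalings, and Acvr2a was called under all but equal totals.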

How the data were processed

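The 4 *mdx5cv* and 4 WT TA muscles were grouped by the genotype in the labels. The values that the authors deposited are a signal: counts per gene after division by a size factor. The submitters' processing notes name Trim Galore 0.6.4, STAR 2.6.0c, SAMtools 1.9, featureCounts, DESeq2 1.26.0 and mm10, with no order. The libraries were stranded total RNA. Reads were recovered by taking the smallest nonzero value of a sample as 1 read, and 100% of values were whole within 0.001 reads. Chi-square per degree of freedom between replicates was 9.10 to 41.5, so no library was a copy of another.

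Genes with a mean of at least 10 were fitted with limma 3.58.1 (R 4.3.3) on log2(normalized count + 1), using lmFit and eBayes with the trend option and no covariate. Tests were two-sided, and adjusted p-values were those of Benjamini and Hochberg over all 13677 genes. Higher or lower means an adjusted p under 0.05. Fold changes on this scale understate those of low genes. Alternatives were other pseudocounts, filters and scalings, no variance trend, a replicate block, each muscle left out, and edgeR 4.0.16 and DESeq2 1.42.0 on the recovered reads. The scripts were tested on simulated data. Gene positions and exon lengths (the union of exons) are from GENCODE M21 (GRCm38).

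The 10 genes, the pathway list and the marker lists were chosen with earlier results of these data known. The rule for naming took the 10 genes, pathway genes past an absolute log2 fold change of 1 or, in a role without one, that with the smallest adjusted p, and the 5 genes most like *Mstn* or *Fstl1*. *Ltbp3*, *Furin*, *Tgfbr3*, *Tgfbr1*, *Ccn2*, *Orc4*, *Gdf3*, *Dcn*, *Bambi*, *Bmpr2*, *Tll1*, the genes with too few reads and the remaining Smad genes were named after their values were seen. The counts over the pathway list include 1 gene that is not reported here.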

Additional observations from a re-analysis of the deposited data

Results flagged for a closer look

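In 70 sets of 4 muscles, the highest or lowest muscle stood apart from the other 3 in 5 (by Dixon's ratio of gap to range, at its 95% critical value), where about 1 set in 20 does so by chance, or 3.5 of 70. For *Fst*, WT replicate 3 was the lowest of its group, with a log2 normalized count of 3.94 where the others had 4.51 to 4.54. For *Tgfbi*, *mdx5cv* replicate 4 was the highest at 9.64, and the others were at 8.73 to 8.85. The same muscle had the lowest log2 summed level of fast glycolytic fiber markers, 18.87 beside 19.49 to 19.52, and the most genes with reads, 22316 beside 21316 to 21429. For satellite cell markers, WT replicate 4 had the highest log2 summed level, 8.09 beside 7.66 to 7.73.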

How the results depend on the processing

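Of 94 refits of the 5 called genes among the 10, 90 kept the direction and the call, 4 kept the direction only and 0 turned. The 4 were *Fst* without WT replicate 3, *mdx5cv* replicate 3 or *mdx5cv* replicate 4 (adjusted p = 0.0520 to 0.0559) and *Acvr2a* with equal totals. Counts of the 10 genes were 3 higher and 2 lower in most settings. With equal totals they were 6 higher and 1 lower, as *Inhbb* (1.17, adjusted p = 0.0352), *Fstl3* (0.96, adjusted p = 0.0445) and *Acvr1b* (0.60, adjusted p = 0.00434) were then called higher, and pathway counts were 16 higher and 1 lower. Under equal totals 39.8% of all genes were higher and 6.00% lower. With at least 10 in every sample, 2 of the 10 genes were higher, since *Inhba*, *Inhbb* and *Fstl3* were not tested. Leaving out 1 muscle gave 2 to 3 higher and 2 lower of the 10 genes, and 12 to 14 higher and 3 to 7 lower pathway genes, the 3 being without WT replicate 1. Among the 10 genes and the pathway genes named by the rule, signs turned for 3 that did not pass the test, *Gdf11* at 0.34 and *Acvr2b* at 0.23 and *Inha* at 0.18 with equal totals, *Acvr2b* without *mdx5cv* replicate 4, and *Gdf11* between 0.00098 and 0.11 without WT replicate 3 or 4 or *mdx5cv* replicate 2 or 4. Over all 8 muscles left out in turn, *Gdf11* ran from -0.21 to 0.11 and *Acvr2b* from -0.29 to 0.040. Over the whole pathway list, 6 genes turned with equal totals, *Inha*, *Dcn*, *Bmpr2*, *Smad2*, *Smad3* and *Smurf2*, of which *Smurf2* had been called lower and was then at 0.09. *Tll1*, which did not pass the test, turned to -0.10 without *mdx5cv* replicate 2. The cause was not tested.

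With the replicate number as a block, 3 and 2 of the 10 genes and 14 and 5 pathway genes were higher and lower. Deviations of same-numbered muscles correlated at 0.031 to 0.146 and not every muscle correlated best with its own number, so the numbers were not taken as pairs. On reads, edgeR called 3 and 2 of the 10 genes and 13 and 5 of 30 pathway genes, beside 21.0% and 19.6% of all genes. DESeq2, run on every gene with a read, called 3 and 2, and 14 and 6 of 37 pathway genes, beside 11.0% and 9.59%. Depth limits *Inhba*, *Inhbb*, *Fst* and *Fstl3*, which had under 30 reads in every WT muscle.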

Other observations

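Of the 41 pathway genes, 11 were below the limit for testing. *Gdf3*, a ligand gene of the TGF-β family, was named here after its values were seen. It had 0 reads in every WT muscle and 12, 4, 6 and 16 reads in *mdx5cv* replicates 1 to 4. A floor of 3 reads over the whole WT group is a WT mean of 0.826 normalized counts. The *Gdf3* mean of 8.27 in *mdx5cv* was 10.01-fold that floor, a figure that leaves out the spread in *mdx5cv*. With no filter on low values the adjusted p was 8.4e-05 in limma and 0.00014 in DESeq2. These p-values are no separate support, since *Gdf3* was picked for its values and had reads in *mdx5cv* alone. *Wfikkn1*, the paralog of *Wfikkn2*, had 11 reads in the WT group and 36 in the *mdx5cv* group (limma without the filter, adjusted p = 0.174). *Acvr1c*, which encodes the type I receptor ALK7, had 48 and 22 reads (limma without the filter, adjusted p = 0.113). *Nodal* had 5 and 8 reads, and *Inhbc*, *Gdf1*, *Fstl4* and *Tdgf1* had 0 in all 8 muscles.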
